A study of Mus musculus with 4 samples.

Results

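The testis-specific serine kinases are serine/threonine kinases of the CAMK group, related to AMPK, that are made mainly in spermatids, the haploid cells that reshape into sperm. In the mouse they are encoded by Tssk1, Tssk2, Tssk3, Tssk4, Tssk5 and Tssk6, and several of them are needed for male fertility. Spermatids store many of their mRNAs and translate them late, under the control of RNA-binding proteins. IGF2BP3 is an RNA-binding protein of the IGF2 mRNA-binding family that contacts its targets through KH and RRM domains. The 6 genes were chosen as the family members by name. A cluster was given to a gene when its centre lay inside the GENCODE M21 span of the gene in mm10, on the gene's own strand. The 6 genes are among 18068 genes that held at least 1 cluster in the data.

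The data were eCLIP-seq of whole testes from 8-week-old wild-type C57BL/6 mice, in which RNA bound to IGF2BP3 is crosslinked by ultraviolet light, pulled down and sequenced. Each of 2 replicates had 1 immunoprecipitated library (IP), made with an IGF2BP3 antibody, and 1 size-matched input library (SMInput), RNA of the same size range without that antibody, which serves as background. Both kinds of library held RNA of germ and somatic cells together. A deposited table for each replicate lists clusters of reads, with a log2 fold change of IP over SMInput and a P value as −log10. Following the study's methods, a cluster was counted as significant when both values were at least 2. Worked out from the listed values, replicate 1 had 5133438 usable reads in the IP and 8706391 in the SMInput, and replicate 2 had 4637612 and 16696122. Intervals on fold changes are exact 95% intervals of the read numbers, and they cover counting error of 1 library pair only.

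Significant clusters lay in 4 of the 6 Tssk genes, taking either replicate, where 71.6% of the 12312 protein-coding genes with a cluster in both replicates had one. In replicate 1 the 6 genes held 32 clusters, of which 3 were significant (9.38%), where 4.92% of all clusters were. In replicate 2 they held 22 clusters, of which 4 were significant (18.2%), where 13.2% of all clusters were. Of all clusters inside genes, 58.6% and 47.5% lay in introns, where 1.96% and 10.8% were significant. Outside introns lay 30 of the 32 and 22 of the 22 Tssk clusters. The part of gene region and of read depth in these shares was not tested. The median log2 fold change of the family's clusters was 1.35 in replicate 1 and 1.34 in replicate 2, beside 1.50 and 1.53 over all clusters. By its median the family lay slightly below all clusters in both replicates, and the part of read depth in this was not tested. Log2 fold changes were above 0 in 30 of the 32 and 21 of the 22 Tssk clusters, where 91.8% and 93.4% of all clusters were, so a value above 0 was the rule for any listed cluster.

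By gene, Tssk1, Tssk4 and Tssk6 had a significant cluster in replicate 1, 3 of 6, where 46.1% of those protein-coding genes had one. Tssk1 and Tssk2 had one in replicate 2, 2 of 6, where 64.6% had one. Tssk1 was the only member with a significant cluster in both replicates, 1 of 6, where 39.1% of the same genes had one in both. It was also the only member with a significant site shared by the replicates, where 16.6% of these genes had at least 1. The Tssk genes are short and held 2 to 7 clusters each in a replicate, fewer than the median of 15 clusters per gene in replicate 1 and 10 in replicate 2, and the part of cluster number in these shares was not tested. With thresholds of 3 on both values, 1 of 32 clusters was left in replicate 1, that of Tssk4, and 0 of 22 in replicate 2, where 1.18% and 2.42% of all clusters passed. When the fold change threshold alone was lowered to 1, 19 clusters passed. These were 9 of 32 in replicate 1, where 7.24% of all clusters passed, and 10 of 22 in replicate 2, where 18.4% did. Tssk1, Tssk2, Tssk3 and Tssk6 then had one in both replicates, 4 of 6, where 45.2% of the protein-coding genes did. The part of read depth in these shares was not tested.

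The clusters of the family rested on more reads than most. Their median was 13 IP reads and 9 SMInput reads in replicate 1, and 14 of each in replicate 2. Over all clusters with read numbers the medians were 4 and 2 in replicate 1, and 4 and 6 in replicate 2. At 9 SMInput reads, a cluster of replicate 1 needed 22 IP reads to pass both thresholds, and at 14 SMInput reads a cluster of replicate 2 needed 16. Tested by their reads with Fisher's exact test and adjusted over all clusters of the replicate, 6 of the 30 clusters with read numbers in replicate 1 were enriched (adjusted p under 0.05), where 5.42% of all were. In replicate 2, 10 of 21 were, where 20.2% of all were. The part of read depth in the difference from these shares was not tested.

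**Figure D1:**
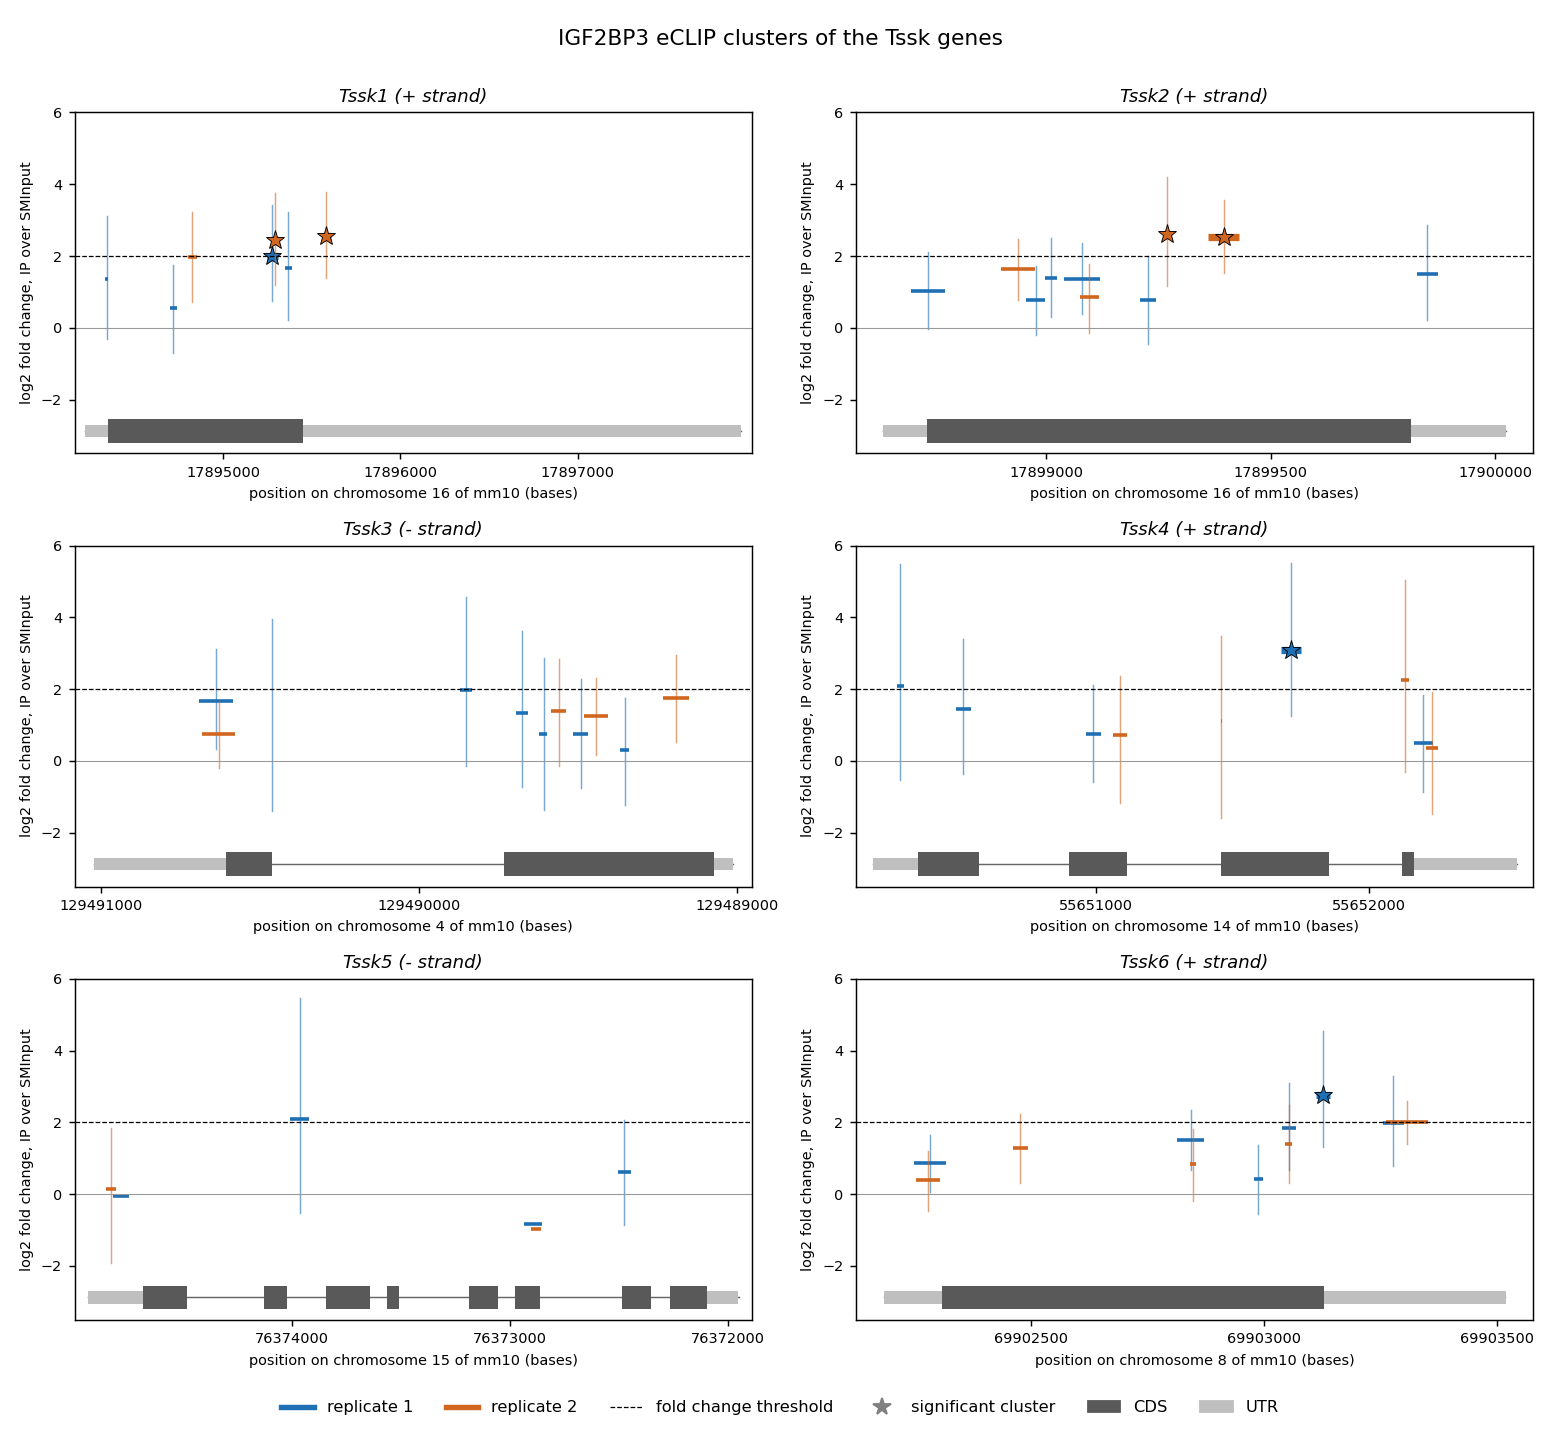
Clusters of the 6 Tssk genes along the mm10 chromosome, drawn 5′ to 3′ from left to right, with the log2 fold change of IP over SMInput on the vertical axis. Horizontal bars show the extent of each cluster, vertical lines the exact 95% interval where read numbers were recovered, stars the 7 significant clusters and the dashed line the fold change threshold of 2. The gene model under each panel is 1 basic transcript, with CDS in dark grey and UTR in light grey.

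Tssk1 encodes a kinase that phosphorylates TSKS, a protein found with it in elongating spermatids. Its single exon spans chr16:17894223-17897922 (plus strand), with a coding sequence (CDS) of 1098 bases. Its shared site lay in the CDS near the 3′ end, with the cluster centres 172 and 156 bases before the end of the stop codon. In replicate 1 the cluster ran from 17895245 to 17895311 and held 19 IP reads and 8 SMInput reads, a log2 fold change of 2.01 (95% interval 0.75 to 3.41). It cleared the threshold by the smallest margin of the 7 significant clusters of the family. In replicate 2 the cluster ran from 17895272 to 17895317 and held 15 IP reads and 10 SMInput reads, a log2 fold change of 2.43 (1.18 to 3.75). The intervals of the replicates overlapped. Adjusted over all clusters of the replicate, Fisher's exact test gave p = 0.0141 in replicate 1 and p = 0.000743 in replicate 2. With the replicate as stratum, the Mantel-Haenszel odds ratio of the site was 4.61 (95% interval 2.58 to 8.24). The site was picked because both clusters passed the thresholds, so this ratio gives its size and is no further test.

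The other clusters of Tssk1 were not shared. A significant cluster of replicate 2 lay in the 3′UTR from 17895556 to 17895610, with 18 IP reads and 11 SMInput reads and a log2 fold change of 2.56 (1.40 to 3.79), and replicate 1 listed no cluster there. In replicate 2 a CDS cluster from 17894801 to 17894853 fell just short of the fold change threshold, at 1.96 (0.71 to 3.23). The GENCODE 3′UTR runs 2269 bases beyond the end of Tssk1 in RefSeq, at 17895653, and neither replicate listed a cluster in those bases. The 73 bases covered by the shared site are printed because it was the one place in the family where both replicates passed, with the 40 bases under the clusters of both replicates in capitals. The run occurs once in the GRCm38 chromosomes and shares at most 9 bases in a row with Tssk2 within either cluster.
Tssk1 CDS, chr16:17895245-17895317, plus strand: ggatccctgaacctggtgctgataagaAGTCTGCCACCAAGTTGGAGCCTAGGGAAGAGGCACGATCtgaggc

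Tssk2 encodes the kinase most like TSSK1, with which it shares TSKS as a substrate, and its gene lies just downstream of Tssk1 on the same strand, from 17898637 to 17900024. It was significant in replicate 2 alone. A CDS cluster from 17899361 to 17899429 held 24 IP reads and 15 SMInput reads, a log2 fold change of 2.53 (1.54 to 3.56), with an adjusted p of 3.55e-06 by Fisher's exact test. Another CDS cluster, 13 bases wide from 17899263 to 17899275, held 12 IP reads and 7 SMInput reads, a log2 fold change of 2.63 (1.16 to 4.21). Replicate 1 listed no cluster that overlapped either of them. Its 6 clusters in Tssk2 had log2 fold changes from 0.76 to 1.50, all below the threshold, and whether Tssk2 differed between the replicates was not tested. At other places of the CDS the replicates overlapped. From 17898956 to 17898975 the log2 fold changes were 0.76 (−0.21 to 1.73) and 1.63 (0.78 to 2.46), and the pooled odds ratio was 2.32 (1.54 to 3.51). From 17899075 to 17899116 they were 1.35 (0.37 to 2.36) and 0.85 (−0.15 to 1.79), with a pooled odds ratio of 2.15 (1.39 to 3.34). At each place the interval of 1 replicate included 0, and the pooled values are descriptions of pairs chosen after their values were seen.

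Tssk1 and Tssk2 are close copies. Their CDS were identical at 81.0% of 1062 aligned bases, whereas all other pairs of the family were identical at 59.7% to 65.9%. The longest run of bases common to both was 113, at 17894723 to 17894835 in Tssk1 and 17899105 to 17899217 in Tssk2, while no other pair shared more than 14 bases in a row. Of these 113 bases, clusters covered 17 and 35 in Tssk1 and 24 and 12 in Tssk2, in replicates 1 and 2. How reads with several equally good places were treated is not given in the sources used here, and the part of such reads in the counts of both genes was not tested. The 13-base cluster of Tssk2 occurs whole in Tssk1. The wider one is shown with the 37 bases that Tssk1 also holds in capitals, and as a whole it occurs once in the genome.
Tssk2 CDS, chr16:17899361-17899429, plus strand: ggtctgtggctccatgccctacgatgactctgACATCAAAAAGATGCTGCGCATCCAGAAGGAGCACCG

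Tssk6 encodes a kinase that is needed for the condensation of spermatid chromatin and the replacement of histones, and that is held active by HSP90 with the co-chaperone TSACC. Its single exon spans chr8:69902184-69903518 (plus strand). The cluster with the most IP reads of the family was in Tssk6 in each replicate, and 4 of the 12 overlapping pairs of the family were in this gene. Among these pairs the fold change was lowest at the 5′UTR and highest in the 3′UTR in both replicates, while a replicate 1 cluster without a partner, in the CDS, had 0.41, below the 5′UTR value of that replicate. At the 5′UTR the overlapping clusters had log2 fold changes of 0.86 in replicate 1 (30 IP reads, 28 SMInput reads) and 0.40 in replicate 2 (18 IP reads, 49 SMInput reads). In the CDS, the overlap from 69902841 to 69902853 had 1.50 and 0.85, and that from 69903046 to 69903060 had 1.83 and 1.41. In the 3′UTR the values were 1.98 (0.80 to 3.29) in replicate 1, from 69903255 to 69903301, and 2.00 (1.39 to 2.60) in replicate 2, from 69903263 to 69903351. Before rounding, both listed values of this 3′UTR pair fell just short of 2, so the pair was not counted as significant. The pair rested on 51 IP reads and 46 SMInput reads in replicate 2, and on 21 and 9 in replicate 1. The adjusted p by Fisher's exact test was 0.0114 in replicate 1 and 1.96e-09 in replicate 2, and the pooled odds ratio was 3.98 (2.79 to 5.69), with a narrower interval than that of the Tssk1 site.

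The only significant cluster of Tssk6 lay over the stop codon in replicate 1, from 69903111 to 69903141. It held 20 IP reads and 5 SMInput reads, a log2 fold change of 2.76 (1.30 to 4.53), with an adjusted p of 0.00105 by Fisher's exact test. Replicate 2 listed no cluster at this place. The sequence is given because the cluster spans the end of the reading frame, with the stop codon in capitals. Its GC content was 77.4%. From the 3′UTR pair, 30 bases of the overlap are shown, all in capitals, because both replicates lay at the threshold there.
Tssk6 stop codon, chr8:69903111-69903141, plus strand: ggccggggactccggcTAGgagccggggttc
Tssk6 3′UTR, chr8:69903268-69903297, plus strand: CGGCGGCCCTCTGAGGCCTGCTGTTGGGTT

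Tssk4 encodes a kinase that phosphorylates ODF2 of the sperm tail and CREB1, and its gene spans chr14:55650184-55652539 (plus strand). It held the significant cluster with the highest log2 fold change of the family, in replicate 1. This cluster ran from 55651677 to 55651750 in the CDS and had 15 IP reads and 3 SMInput reads, a log2 fold change of 3.08 (1.26 to 5.51), with an adjusted p of 0.00292 by Fisher's exact test. Replicate 2 listed no cluster there. Its 4 clusters in Tssk4 rested on 3 to 5 IP reads each, and the highest of them had a log2 fold change of 2.26 with a −log10 P value of 1.35, below the threshold. The single overlap of the replicates lay from 55652208 to 55652231, in the 3′UTR of some transcripts, and had log2 fold changes of 0.50 and 0.36. Its pooled odds ratio of 1.36 had an interval from 0.713 to 2.60, which includes 1.

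Tssk3 and Tssk5, 2 of the 6 members, had no significant cluster in either replicate, where 71.6% of the protein-coding genes had at least 1. Tssk3, at chr4:129489014-129491022 (minus strand), had 7 clusters in replicate 1 and 4 in replicate 2, with median log2 fold changes of 1.18 and 1.33, below those of all clusters. Its highest value in replicate 1 was 1.98 (−0.15 to 4.57), an intron cluster with 7 IP reads and 3 SMInput reads. Its highest in replicate 2 was 1.74 (0.53 to 2.94), a CDS cluster from 129489152 to 129489231. At its 5′UTR the replicates overlapped from 129490586 to 129490682, with log2 fold changes of 1.67 and 0.76 and a pooled odds ratio of 2.12 (1.31 to 3.42).

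Tssk5 was the one member with clusters below 0. Its gene, at chr15:76371952-76374938 (minus strand), has 8 exons, while Tssk1, Tssk2 and Tssk6 have 1. In its CDS, overlapping clusters had log2 fold changes of −0.82 in replicate 1, from 76372852 to 76372934, and −0.96 in replicate 2, from 76372859 to 76372903. At its 5′UTR the values were −0.05 and 0.15. The highest cluster of Tssk5, in an intron in replicate 1, had a log2 fold change of 2.08 on 5 IP reads and 2 SMInput reads, and its −log10 P value of 0.96 was below the threshold.

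**Figure D2:**
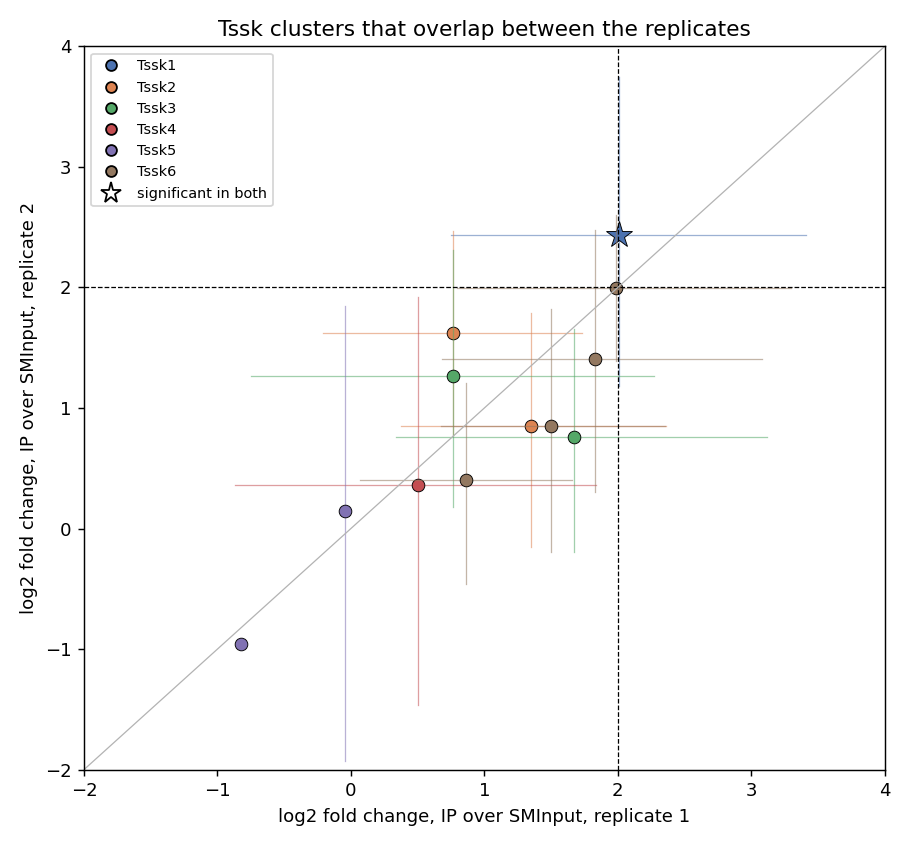
Log2 fold change of IP over SMInput in replicate 1 (horizontal axis) and replicate 2 (vertical axis) for the 12 pairs of Tssk clusters that overlap by at least 1 base, with exact 95% intervals where read numbers were recovered. Dashed lines mark the threshold of 2 and the grey line equal values. The star is the Tssk1 CDS site (2.01 and 2.43), the Tssk6 3′UTR pair lies at the crossing of the thresholds (1.98 and 2.00), and a Tssk5 pair lies below 0 in both replicates.

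Over the family, 12 pairs of clusters overlapped between the replicates, in all 6 genes. As a share of the Tssk clusters, this was 37.5% in replicate 1 and 54.5% in replicate 2, where 24.9% and 37.3% of all clusters overlapped one of the other replicate. The part of read depth in this difference was not tested. In 10 of the 12 pairs both log2 fold changes were above 0, where 77.1% of all overlapping pairs had this, and the exceptions were those of Tssk5. Of the 10 pairs with read numbers, 9 had a pooled odds ratio whose interval lay above 1, from 1.57 at the 5′UTR of Tssk6 to 4.61 at the Tssk1 site, where 71.3% of all overlapping pairs with read numbers had this. Apart from the Tssk1 site, these pairs were pooled after their values were seen. Clusters listed as not enriched carry no read numbers. The count thus describes the pairs and is no test of the family. No cluster on the opposite strand lay inside any of the 6 genes in either replicate, and none lay in the 714 bases between Tssk1 and Tssk2.

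Most Tssk clusters were in coding sequence. In replicate 1, 22 of the 32 centres lay in CDS, 5 in 5′UTR, 3 in 3′UTR and 2 in introns, and in replicate 2, 15 of 22 lay in CDS, 3 in 5′UTR and 4 in 3′UTR. Of all clusters inside genes, 26.5% and 33.8% lay in CDS and 58.6% and 47.5% in introns, which the single-exon genes Tssk1, Tssk2 and Tssk6 lack. Outside introns, 22 of 30 and 15 of 22 Tssk clusters lay in CDS, beside 64.1% and 64.4% of all. In CDS, 3 of the 22 and 3 of the 15 Tssk clusters were significant, beside 5.28% and 7.96% of all CDS clusters. In 3′UTR, where 19.4% and 34.5% of all clusters were significant, none of 3 and 1 of 4 Tssk clusters were. In Tssk4 the transcripts differ in where the CDS ends, and with CDS counted before 3′UTR the 3′UTR held 2 Tssk clusters in each replicate, with 0 and 1 significant. Of the significant Tssk clusters, 3 of 3 in replicate 1 and 3 of 4 in replicate 2 were in CDS, beside 28.5% and 20.5% of all significant clusters inside genes. The exception was the Tssk1 cluster in the 3′UTR. Of all significant clusters inside genes, 23.4% and 38.9% lay in introns, which Tssk1, Tssk2 and Tssk6 lack. The 3 CDS clusters of replicate 1 include the Tssk6 cluster over the stop codon. With so few clusters these counts are a description.

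The sequence around the Tssk clusters held more G and C than that around all clusters. In windows of 100 bases around the cluster centres the median GC content was 58% in replicate 1 and 58.5% in replicate 2, beside 46% and 47% over all clusters, most of which lay outside CDS. Among clusters in CDS alone it was 58% and 60% for the Tssk genes, beside 51% and 51% for all. On the RNA strand, GAACA was in 3 of 32 and 1 of 22 Tssk windows, beside 9.38% and 8.96% of the windows of all clusters. AAACC was in 2 of 32 and 4 of 22, beside 7.67% and 7.24%. GGACT was in 2 of 32 and 5 of 22, beside 8.53% and 8.66%. Windows of neighbouring clusters overlap, and a match describes the letters and not a bound site. Of the sequences printed, that of the Tssk6 stop codon cluster holds GGACT, and those of the Tssk1 site, the Tssk2 cluster and the Tssk6 3′UTR hold none of the motifs.

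All 6 mRNAs were covered in the SMInput. Scaled to 1000000 usable SMInput reads, the highest cluster of the gene held 3.22 and 2.93 reads in Tssk6, 2.3 and 1.8 in Tssk2, and 1.26 and 2.04 in Tssk3, in replicates 1 and 2. The same values were 1.61 and 0.719 in Tssk1, 1.38 and 0.839 in Tssk4, and 1.15 and 0.779 in Tssk5, where the clusters listed as not enriched have no read numbers. These clusters were 30 to 105 bases wide, so the values give the depth behind each gene and were not ranked as levels. In whole testes, fewer cells of a type and less RNA per cell cannot be told apart. All 26 markers of spermatids, spermatocytes, spermatogonia, Sertoli cells and Leydig cells had clusters in both replicates, so RNA of germ and somatic cells was present.

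The named partners of the kinases were compared next. Of 10 partners, substrates and co-chaperones, 7 had a significant cluster in both replicates, where 39.1% of the protein-coding genes with clusters in both had one. By cluster, 24 of 986 were significant in replicate 1 and 51 of 658 in replicate 2, where 4.92% and 13.2% of all clusters were. Spag16 alone held 613 and 396 of these clusters, with 10 and 29 of them significant. A shared site was found in 3 of the 10 genes, all in 3′UTRs, where 16.6% of the protein-coding genes with clusters in both had one. Hsp90aa1, which encodes the chaperone HSP90 alpha, had the highest values of these. In replicate 1, 2 adjacent clusters each had a log2 fold change of 3.53 (34 IP reads, 5 SMInput reads). Both overlapped the same replicate 2 cluster, which had 3.96 (26 IP reads, 6 SMInput reads). Whether the 2 replicate 1 clusters, with equal read numbers, rest on the same reads was not tested. The shared site of H2afx, which encodes the histone variant H2AX, had 2.25 (98 IP reads, 35 SMInput reads) and 2.34 (94 IP reads, 67 SMInput reads). That of Pdpk1, which encodes the kinase PDK1, had 2.21 (30 IP reads, 11 SMInput reads) and 2.36 (10 IP reads, 7 SMInput reads). Tsks, the substrate of TSSK1 and TSSK2, is named after its values were seen. It had 24 clusters in each replicate and none was significant, the highest being 1.76 and 1.37. The median log2 fold change of the clusters of these 10 genes was 1.09 and 1.10, beside 1.50 and 1.53 over all clusters.

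Kinases related by sequence or by stage were counted in the same way. Of 16 AMPK-related kinases, 15 had clusters in both replicates, 7 had a significant cluster in both and 2 had a shared site, beside the same 39.1% and 16.6%. Those with a shared site were Mark2, a microtubule-affinity regulating kinase, with 2.64 and 2.46, and Sik1, a salt-inducible kinase, with 2.93 and 2.33, both in the 3′UTR. The site of Mark2 rested on 22 and 23 IP reads and 6 and 15 SMInput reads. That of Sik1 was the thinnest of the lists, with 9 IP reads and 2 SMInput reads in replicate 1 and 7 and 5 in replicate 2. The median log2 fold change of the clusters of the list was 1.35 and 1.53. Of these clusters, 19 of 559 in replicate 1 and 49 of 345 in replicate 2 were significant, beside 4.92% and 13.2% of all clusters. Of 8 other kinases of spermatids or meiosis, 6 had a significant cluster in both replicates and 4 had a shared site, again beside 39.1% and 16.6%. Csnk2a2, a catalytic subunit of casein kinase 2, had one in CDS (2.76 and 3.72, on 16 and 11 IP reads and 4 and 3 SMInput reads), and Prkaca, Tesk1 and Nek1 had one in the 3′UTR. The shared site of Tesk1, a testis kinase, had 59 IP reads and 20 SMInput reads in replicate 1 and 83 and 65 in replicate 2, with log2 fold changes of 2.32 and 2.20. That of Nek1, a kinase of cilia and meiosis, had 2.35 and 2.21, on 27 and 18 IP reads and 9 and 14 SMInput reads. The site of Prkaca, the catalytic subunit of protein kinase A, had 2.36 in replicate 1 (94 IP reads, 31 SMInput reads) and clusters of 2.29 (34 and 25) and 2.00 (69 and 62) in replicate 2. The median over the clusters of these 8 genes was 1.50 and 1.43. Of their clusters, 15 of 471 in replicate 1 and 31 of 300 in replicate 2 were significant, again beside 4.92% and 13.2% of all clusters. Genes of the lists held up to 613 clusters in a replicate, so their counts are not matched to those of the Tssk genes. Nor are they matched to the 39.1% and 16.6%, which come from genes with a median of 15 and 10 clusters. The part of cluster number in the gene counts of the lists was not tested.

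The genes most like a member were sought by the log2 fold change of the cluster with the most IP reads in the 3′UTR and in the CDS, in each replicate, 4 values over 6014 protein-coding genes that had them all. Of the members, Tssk6 and Tssk4 had all 4 values. The nearest to Tssk6 were Chl1 (distance 0.05), Bub3 (0.15) and Dnajb1 (0.24). The nearest to Tssk4 were Tsx (0.42), Selenop (0.74) and H13 (0.81). The 3′UTR clusters of Tssk4 lie in the CDS of other transcripts. With CDS counted before 3′UTR, Tssk4 would lack its 3′UTR values and have no nearest genes. In replicate 2 its 3′UTR and CDS values rested on 5 IP reads each. The distance is Euclidean and describes these 4 values alone.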

How the data were processed

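Adapters, ribosomal RNA reads and PCR duplicates were removed with cutadapt, Bowtie2 and unique molecular identifiers, reads were mapped to mm10 with STAR and clusters were called by the authors, for each replicate on its own. The −log10 P values and the log2 fold changes of the clusters are the authors' deposited values, with an upper limit of 400 on −log10 P. A −log10 P of 0, called not enriched here, was listed for 35791 clusters in replicate 1 and 16261 in replicate 2. Some of these had a log2 fold change above 0. Each IP was compared with the SMInput of its own replicate.

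Library totals and reads per cluster were worked out from the listed values as whole numbers that return both of them, with Fisher's exact test where an observed or expected number was under 5 and the chi-square test with Yates' correction otherwise. This gave 1 solution for 99.9% and 99.7% of clusters listed between 0 and 400. Others have no read numbers here. The limit of 5 on expected numbers and the tolerance were set after seeing clusters that an earlier rule left unsolved. The procedure was tested on simulated data made with the same rule for P values. Such data cannot show whether the authors' P values follow that rule. Two-sided Fisher's exact tests were adjusted by the Benjamini-Hochberg method over all clusters of a replicate with read numbers. Pooled odds ratios are Mantel-Haenszel estimates with Robins-Breslow-Greenland intervals. A centre in several regions of the basic GENCODE M21 transcripts was given to the 3′UTR, else to the CDS, else to the 5′UTR. CDS were aligned globally with Biopython 1.88, and other steps used Python 3.11.15, numpy 2.4.6, pandas 2.3.3 and scipy 1.17.1. All members were named, and from the lists the genes with a shared site, with the others counted. Pairs other than the Tssk1 site were pooled after seeing the data.

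The members and lists were chosen with earlier results of these data known. The replicates are called biological, without saying whether each came from separate animals, and p-values measure only the counting error of a library pair.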

Additional observations from a re-analysis of the deposited data

How the results depend on the processing

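With 7 significant clusters in the family, thresholds of 3 on both values left 1, and lowering the fold change threshold alone to 1 gave 19. Leaving out a replicate gave 3 to 4. The number of members with a significant cluster in both replicates, 1, was 0 at thresholds of 3 and 4 with the lowered fold change threshold, and with a single replicate 2 to 3 members had a significant cluster. The shared site was lost at thresholds of 3, which left 0. Which property of the clusters sets these changes was not tested. The 7 clusters and the 1 member in both replicates were the same in number with an adjusted Fisher's exact test in place of the listed P value, with at least 10 IP reads and with any overlap with the gene span. The adjusted test and the read minimum use the same reads as the listed values, so they are no independent check. The number of clusters was also the same with the centre in an exon, and the number of shared sites with at least 10 IP reads or an overlap of 50% of the shorter cluster. The exact binomial test called 14 clusters where Fisher's exact test called 16. Without the replicate block, the summed reads of the Tssk1 site gave an odds ratio of 4.91 (2.77 to 8.69), and each replicate alone gave 4.03 to 5.40. The site was picked by the same reads, so these values say nothing of its stability. The Tssk6 3′UTR pair, chosen after seeing the data, gave 3.40 (2.40 to 4.83) without the block. Of the 37 clusters in CDS, 6 were left when significant clusters alone were counted, of which there are fewer, and with CDS before 3′UTR there were 40. Clusters in 3′UTR then fell from 3 to 2 in replicate 1 and from 4 to 2 in replicate 2, by the Tssk4 transcripts. The median over the genes of the SMInput level, 1.41 reads per 1000000 usable reads, was 0.786 when the median cluster of each gene took the place of the highest. The shared site of Tssk1 rests on 19 and 15 IP reads, and in both replicates the interval of its fold change reaches below the threshold.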

Other observations

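The genes named here were chosen after their values were seen, from marker lists of the cell types of the testis. Over all clusters, 4.92% were significant in replicate 1 and 13.2% in replicate 2, and 16.6% of protein-coding genes with clusters in both replicates had a shared site. Dazl, a germ cell translation regulator on the spermatogonial list, had 14 of 24 clusters significant in replicate 1 and 10 of 20 in replicate 2, with 3 shared sites. It held most of the significant clusters of the 5 genes of that list in replicate 1, 14 of 18, and 10 of 22 in replicate 2. The others were Kit, with 3 of 20 and 5 of 20 and 1 shared site, Zbtb16, with 1 of 27 and 6 of 21, Stra8, with 0 of 12 and 1 of 6, and Uchl1, with 0 of 12 and 0 of 16. On the spermatid list, Acrv1, an acrosomal protein, had 5 of 15 and 3 of 8, with 1 shared site, and Spaca1, another one, had 2 of 11 and 1 of 17. Prm1, Prm2, Tnp1 and Tnp2, which encode the protamines and transition proteins of spermatids, had no significant cluster in either replicate, and their highest log2 fold changes ran from 1.09 to 1.93.

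In the SMInput, levels are reads of the highest cluster of a gene per 1000000 usable reads, summed over a list, in replicates 1 and 2. The 6 spermatid markers summed to 131 and 122, with Prm2 the highest at 48.9 and 39.8. The 5 spermatocyte markers summed to 84.3 and 132, with Hspa2 at 52.7 and 108. The 5 spermatogonial markers summed to 15 and 15.7, with Dazl at 8.73 and 11.9. The 5 Sertoli cell markers summed to 35.2 and 34.9, with Clu at 25.0 and 23.5. The 5 Leydig cell markers summed to 41.1 and 34.7, with Insl3 at 36.6 and 31.2. No marker was at 0 clusters in either replicate. The part of cell type shares in the Tssk values was not tested.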
